A study of Rattus norvegicus with 6 samples.

Results

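The genes described here are those of the endoplasmic reticulum (ER) stress response and the linked amino acid response, in rat stem cells from adipose tissue, cultured with or without an adipogenic cocktail. A set of 43 gene symbols was fixed by name, and 42 of them had a feature on the array, out of 18166 genes in all. Aars was found under its current symbol Aars1, and Sesn2 had no feature with that symbol alone. Where a gene had several features the one with the highest mean was used, which concerned 1 member, Mthfd2.

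The induced group was 3 cultures of adipose-derived stem cells kept for 7 days in medium with 5 µg/ml insulin, the glucocorticoid receptor agonist dexamethasone at 1 µM, the phosphodiesterase inhibitor 3-isobutyl-1-methylxanthine at 0.5 mM and 20% fetal bovine serum. The control group was 3 cultures of the same kind of cell in medium with 10% serum and none of the inducers named, so serum differed between the groups along with the inducers. The donors were female Wistar rats, 2 weeks old, and the fat pad was inguinal. The sources used here do not give the time control cultures were kept. They are a plastic-adherent stromal population, not a clone, and the labels do not say whether the 3 cultures of a group came from separate rats, so p-values measure the spread between these cultures only.

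Secreted and membrane proteins fold in the ER. When unfolded proteins accumulate there, the sensors IRE1 (encoded by Ern1), PERK (Eif2ak3) and ATF6 raise chaperones, disulfide enzymes and disposal factors, partly through the transcription factor XBP1. PERK also acts through ATF4, a transcription factor that amino acid shortage activates by another kinase, and ATF4 raises genes of amino acid synthesis, uptake and tRNA charging. Adipocytes secrete adipokines and lipoprotein lipase, and stromal precursors secrete collagen, so both kinds of cell use this machinery.

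The promoters of the folding members and of the amino acid response members differed in the motifs searched. RefSeq promoters (GRCr8 build) were held for 36 of the 42 measured members, and the 250 bases before each listed start were searched on both strands. The ER stress response element (ERSE) is CCAAT and CCACG held 9 bases apart, and its shorter form ERSE-II is ATTGG and CCACG held 1 base apart. Of 17 folding and disposal members with a promoter, 9 held ERSE or ERSE-II (52.9%), against 0 of 17 amino acid response members and 0.192% of 14564 genes on the array with a promoter. These stretches are shown because the element recurs among the folding members. Those members were fixed by name as genes of the ER stress response. A high share of its element among them is therefore no independent finding. Xbp1, shown last, is a sensor member outside the 9 counted, and 1 of 2 sensor members with a promoter held ERSE. Capitals mark the matched letters, and a match in reverse orientation starts with CGTGG.

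Hspa5 (chr3:38452958-38453006, plus strand): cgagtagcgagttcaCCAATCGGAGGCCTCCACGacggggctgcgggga
Hsp90b1 (chr7:23012332-23012484, minus strand): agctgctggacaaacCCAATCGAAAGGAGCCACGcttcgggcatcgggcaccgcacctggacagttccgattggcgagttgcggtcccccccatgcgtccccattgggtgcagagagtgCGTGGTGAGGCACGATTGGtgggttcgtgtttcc
Calr (chr19:40213120-40213168, plus strand): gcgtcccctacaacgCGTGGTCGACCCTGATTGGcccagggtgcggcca
Canx (chr10:35158054-35158102, minus strand): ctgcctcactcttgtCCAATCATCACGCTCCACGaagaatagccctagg
Creld2 (chr7:121789224-121789272, plus strand): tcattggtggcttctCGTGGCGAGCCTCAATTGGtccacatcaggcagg
Xbp1 (chr14:84604543-84604591, plus strand): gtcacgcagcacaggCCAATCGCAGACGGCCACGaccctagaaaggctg

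Dnajc3 and Ero1b also held ERSE, and Herpud1 and Hyou1 held ERSE-II. One copy in Hyou1 overlapped a TGACGTGG match, the XBP1-binding element, which 0.652% of genes on the array held. The Hspa5 match spanned positions -43 to -25 from the start. Hsp90b1 held ERSE at 2 places, beginning at positions -176 and -72.

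On the amino acid side, the composite element bound by ATF4 with C/EBP proteins was searched as TGATGNAA. It was found in 4 of 17 amino acid response members with a promoter (23.5%), in 1 of 17 folding and disposal members, Herpud1, and in 2.77% of genes on the array. The amino acid response members were fixed by name as genes of the ATF4 branch, so their share is no independent finding either. All 4 amino acid matches read in reverse orientation.

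Chac1 (chr3:126795949-126795986, plus strand): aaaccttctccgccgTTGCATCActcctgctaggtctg
Trib3 (chr3:161275534-161275569, minus strand): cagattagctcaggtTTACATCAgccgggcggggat
Nupr1 (chr1:190645934-190645971, minus strand): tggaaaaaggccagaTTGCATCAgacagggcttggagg

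The windows of Asns, Slc7a11 and Dnajb9 held none of the 4 motifs, which says only that these letters are not in the searched bases.

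Levels are log2 RMA signals, and each change is induced minus control in log2 units, with the standard error (SE) of the limma fit over all 18166 genes and a p adjusted over all of them by the Benjamini-Hochberg method. Signals are given as induced replicates 1, 2 and 3 and then control replicates 1, 2 and 3. By this test 0 of the 42 members passed an adjusted p of 0.05, where 0.749% of all genes did (0.27% lower and 0.479% higher in induced cells). At an unadjusted p under 0.05 there were 13 members, all lower in induced cells, against 9.51% of all genes lower and 8.13% higher. The estimate was below 0 for 34 of 42 members and for 52.4% of all genes. The members' median change was -0.36, against -0.01 over all genes.

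**Figure D1:**
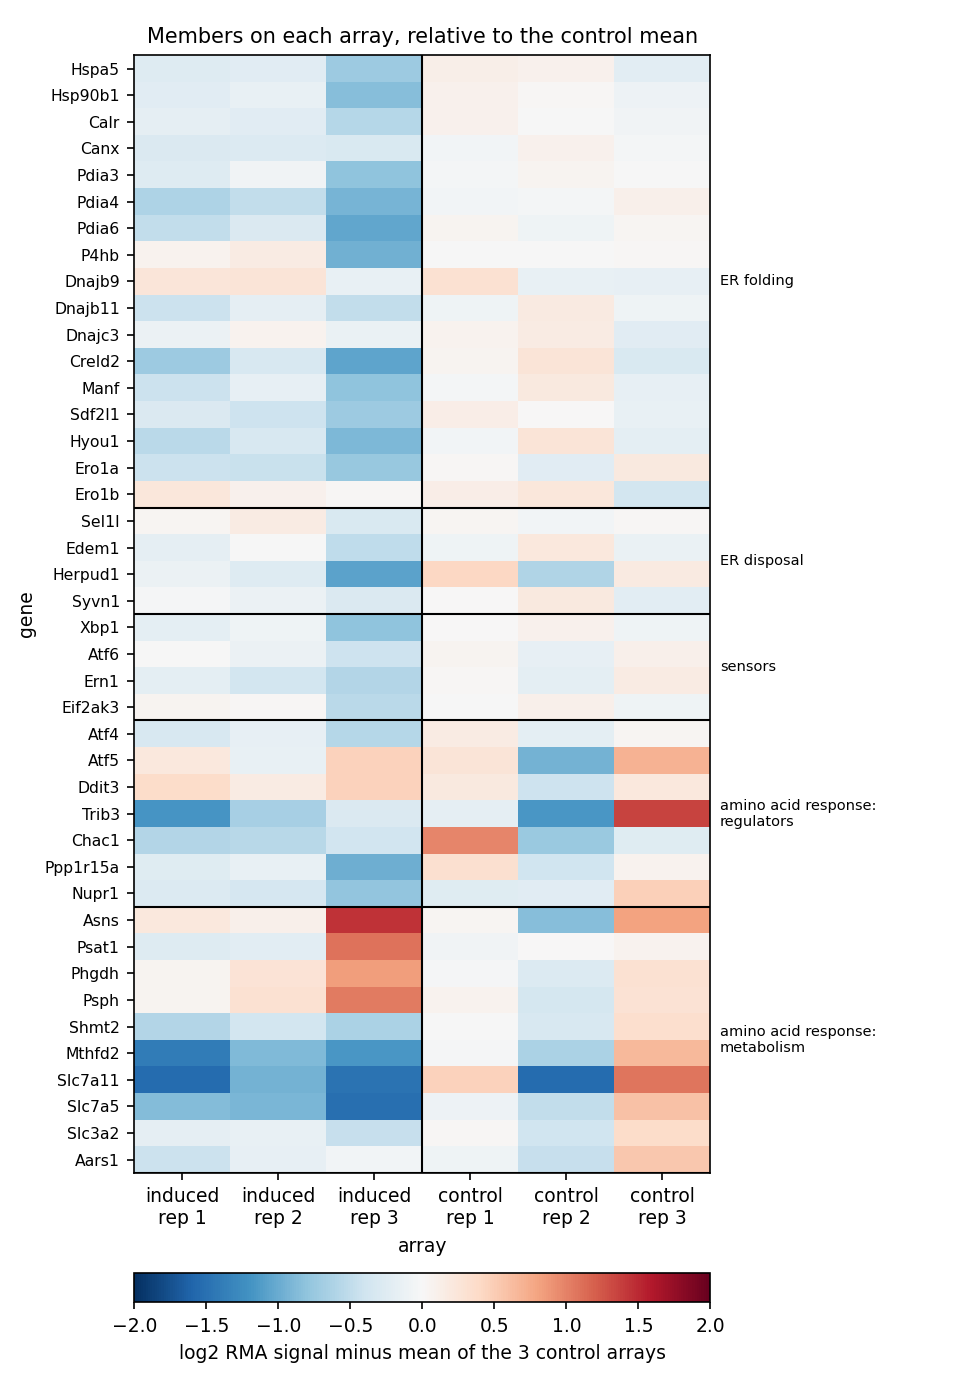
Log2 signal of the 42 measured members on each array, as the difference from the mean of the 3 control arrays (rows: genes by role; columns: 3 induced, then 3 control arrays; blue lower, red higher, colour scale in log2 units). Most folding rows are blue on the induced arrays and deepest on induced replicate 3, while many amino acid response rows differ in colour among the control arrays, with replicate 2 low and replicate 3 high.

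The chaperones and folding enzymes of the ER lumen were mostly lower in induced cells by estimate, though no single gene passed the test. Of 17 members, 15 had an estimate below 0, with a median of -0.40. At an unadjusted p under 0.05 there were 9, all lower, where 9.51% of all genes were. For 13 of 17 every induced array read below every control array, and 13.4% of all genes were ordered so. Some of these gaps were narrow, such as those of Hspa5, Creld2 and Manf. The count of 13 or more held whichever array was left out, when the share over all genes was 17.7% to 20.1%. Adjusted p-values ran from 0.0963 to 0.882.

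Hspa5, which encodes BiP, the main Hsp70 chaperone of the ER, read 12.12, 12.14 and 11.64 on induced arrays and 12.49, 12.46 and 12.15 on control arrays. The change was -0.40 (SE 0.18, adjusted p = 0.306), or 0.755-fold on the linear scale. Every induced value lay below every control value, by a narrow margin at control replicate 3.

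Hsp90b1, the ER member of the Hsp90 family, read 11.66, 11.73 and 11.04 in induced cells and 11.98, 11.91 and 11.78 in control cells (change -0.41, SE 0.20, adjusted p = 0.352). The lectin chaperones, which hold glycoproteins while they fold, also sat lower without overlap. Calr, the soluble lectin, stood at -0.32 (SE 0.14, adjusted p = 0.293) and Canx, its membrane-bound relative, at -0.29 (SE 0.10, adjusted p = 0.216). Canx was the tightest of the folding members among induced arrays, at 11.24, 11.24 and 11.22 against 11.47, 11.61 and 11.49 in control.

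Among the disulfide isomerases, Pdia4 had the lowest adjusted p of all members. It read 10.10, 10.24 and 9.79 in induced cells and 10.67, 10.69 and 10.83 in control cells (change -0.68, SE 0.14, adjusted p = 0.0963), or 0.623-fold. Every induced value lay below every control value. With array weights, a setting that gave induced replicate 3 a weight of 0.273, its adjusted p was 0.034, and over the other alternatives it ran from 0.0663 to 0.266.

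Pdia6 read 10.57, 10.78 and 10.03 in induced cells against 11.12, 10.97 and 11.10 in control (change -0.61, SE 0.20, adjusted p = 0.204). Pdia3, which works with the lectin chaperones, stood at -0.38 (SE 0.20, adjusted p = 0.383). P4hb, the most studied isomerase and also a subunit of the collagen prolyl hydroxylase, differed from them. It read 12.43, 12.52 and 11.40 in induced cells and 12.34, 12.34 and 12.37 in control cells, so induced replicates 1 and 2 lay above all control arrays and induced replicate 3 well below. Its change of -0.24 (SE 0.29, adjusted p = 0.744) was 0.12 without induced replicate 3.

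The oxidases that recharge these isomerases gave unlike values. Ero1a read 9.91, 9.89 and 9.58 in induced cells and 10.36, 10.11 and 10.54 in control cells (change -0.54, SE 0.16, adjusted p = 0.163), with no overlap. Ero1b, its paralogue, stood at 0.11 (SE 0.18, adjusted p = 0.807) and its groups overlapped.

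The co-chaperones and small stress-induced ER proteins held the largest folding difference. Creld2, an ER protein induced by misfolded cargo, read 7.47, 7.88 and 7.13 in induced cells and 8.25, 8.44 and 7.89 in control cells. The change was -0.70 (SE 0.23, adjusted p = 0.201), with induced replicate 2 and control replicate 3 almost touching. Hyou1, a nucleotide exchange factor for BiP, stood at -0.59 (SE 0.19, adjusted p = 0.199) and Sdf2l1 at -0.48 (SE 0.15, adjusted p = 0.19). The secreted ER stress protein Manf stood at -0.46 (SE 0.19, adjusted p = 0.277) and the J protein Dnajb11 at -0.36 (SE 0.14, adjusted p = 0.251). Each was without overlap, though for Manf induced replicate 2 (9.544) almost touched control replicate 3 (9.545).

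Other J proteins did not share the difference. Dnajb9, a BiP co-factor that represses IRE1, read 8.06, 8.07 and 7.66 in induced cells and 8.13, 7.68 and 7.65 in control cells (change 0.11, SE 0.18, adjusted p = 0.813). Dnajc3 stood at -0.06 (SE 0.14, adjusted p = 0.882). Both groups overlapped for each of these genes.

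**Figure D2:**
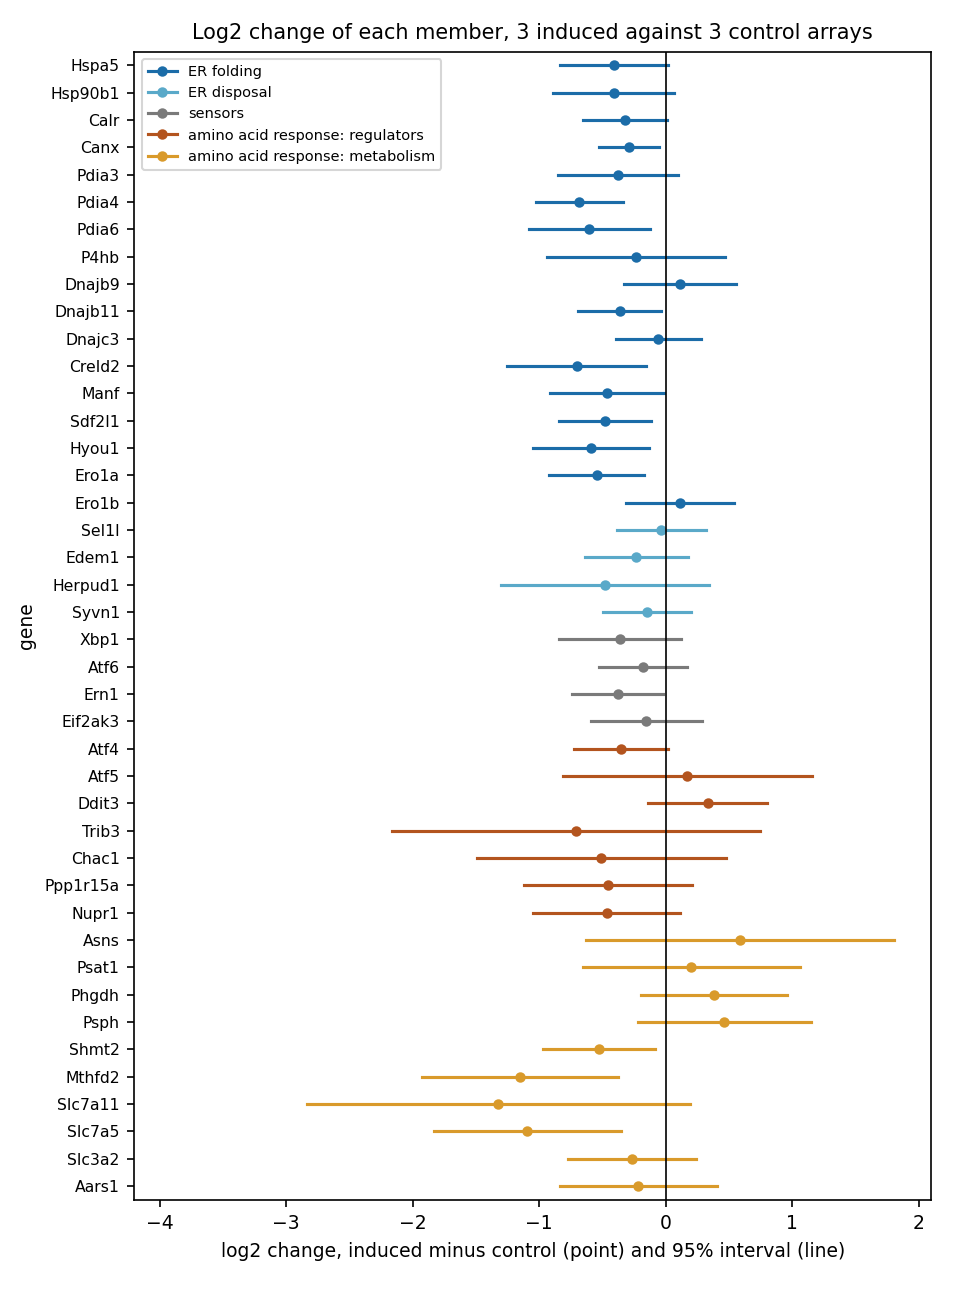
Log2 change of each member (point) with its unadjusted 95% interval from the limma fit (line), coloured by role, 3 induced against 3 control arrays. The folding points cluster between -0.70 and 0.11, and the metabolic points spread from -1.32 to 0.59.

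The disposal genes, which extract misfolded proteins from the ER for degradation, had estimates below 0 in 4 of 4 cases, and all 4 genes overlapped between the groups. Herpud1, a stress-induced scaffold of the disposal complex, read 9.27, 9.13 and 8.32 in induced cells and 9.80, 8.79 and 9.57 in control cells (change -0.48, SE 0.34, adjusted p = 0.529). Edem1, which recognises trimmed glycans, stood at -0.23 (adjusted p = 0.539), the ubiquitin ligase Syvn1 at -0.15 (adjusted p = 0.668) and its partner Sel1l at -0.03 (adjusted p = 0.938).

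The sensors and their transcription factors had estimates below 0 in 4 of 4 cases. Ern1 read 7.56, 7.39 and 7.17 in induced cells and 7.78, 7.56 and 7.92 in control cells (change -0.38, SE 0.15, adjusted p = 0.269), its highest induced value lying just under its lowest control value. Xbp1 read 11.50, 11.62 and 10.89 in induced cells and 11.71, 11.78 and 11.61 in control cells (change -0.36, SE 0.20, adjusted p = 0.413). Atf6 stood at -0.18 (adjusted p = 0.582) and Eif2ak3 at -0.15 (adjusted p = 0.73), and the groups of Xbp1, Atf6 and Eif2ak3 overlapped. The array summarises all transcripts of Xbp1, so IRE1-dependent splicing of its mRNA cannot be read here.

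Induced replicate 3 stood apart in this arm. It was the lowest induced array for all 17 folding, all 4 disposal and all 4 sensor members, as it was for 7505 of all 18166 genes. It was the lowest of all 6 arrays for 14, 4 and 4 of these members, as it was for 28.9% of all genes. The folding members' median change was -0.28 from induced replicates 1 and 2, and -0.76 from induced replicate 3. Without it 14 of 17 folding estimates were below 0 and 13 of 17 genes still did not overlap. Without both replicate 3 arrays 14 of 17 did not overlap, where 24% of all genes were ordered so.

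Cell type markers also stood apart on this array. The mean of 9 mature adipocyte markers was 10.90, 10.82 and 12.00 on induced arrays and 8.96, 7.52 and 7.40 on control arrays, and all 9 were highest among induced arrays on replicate 3. The mean of 7 stromal markers was 9.53, 9.65 and 8.70 on induced arrays and 10.13, 10.07 and 10.17 on control arrays. On induced replicate 3, 5 of these 7 were lowest among induced arrays and 2, Thy1 and Cd34, were highest. Pdgfra, a receptor of stromal precursors singled out after its values were seen, read 11.99, 11.95 and 9.05 in induced cells and 12.26, 11.77 and 11.61 in control cells.

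Most macrophage and leukocyte markers were lowest on replicate 3, 8 of 10 among induced arrays and 8 of 10 among control arrays. On induced replicate 3, 1 was the highest among induced arrays. The mean of 10 such markers was 7.80, 7.28 and 6.10 on induced arrays and 6.84, 7.13 and 5.65 on control arrays. Lyz2, the myeloid lysozyme, also singled out after its values were seen, read 11.56, 10.99 and 4.44 in induced cells and 9.31, 10.19 and 4.71 in control cells. The part of the adipocyte, stromal and macrophage markers in the folding result was not tested. In bulk RNA, fewer cells of a type and less RNA per cell cannot be told apart.

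The amino acid response members gave mixed estimates. Of 17, 11 had an estimate below 0, with a median of -0.35, and 0 passed over all genes (adjusted p from 0.155 to 0.879). At an unadjusted p under 0.05 there were 3 (17.6%), all lower. Over all genes 9.51% were lower at that threshold and 17.6% changed in either direction. For 4 of 17 every induced array read below every control array, as 13.4% of all genes did. That count was 10 of 17 without control replicate 2, where 17.7% of all genes were ordered so, and 4 or 5 without any other array. The median change was -0.08 without control replicate 3.

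Control arrays differed from one another in these genes by about as much as the groups did. The median SD among control arrays was 0.41 for the amino acid response members, 0.15 for the folding members and 0.15 over all genes. Control replicate 2 was the lowest control array for 15 of 17 amino acid response members and control replicate 3 the highest for 14 of 17. Over all genes these shares were 31.0% and 34.3%, and among the 17 folding members control replicate 2 was lowest for 2. The mean of the 17 amino acid response members was 8.52, 8.65 and 8.75 on induced arrays and 9.03, 8.38 and 9.38 on control arrays. Among control arrays it was highest on replicate 3, where the macrophage marker mean was lowest (5.65), and lowest on replicate 2, where that mean was highest (7.13). The part of these markers in the amino acid response values was not tested.

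The rule behind this gene set asks for the folding members to be set against the amino acid response members. The mean of the 21 folding and disposal members minus that of the 17 amino acid response members was 1.29, 1.24 and 0.66 on induced arrays and 1.07, 1.70 and 0.58 on control arrays. It averaged 1.06 ± 0.35 in induced cells and 1.12 ± 0.56 in control cells (SD, n = 3 arrays each), a difference of -0.05 that was smaller than either SD. The sign of that difference turned with the arrays, to 0.24 without control replicate 2 and 0.15 without induced replicate 3. So the balance between the arms differed less between the groups than among replicates.

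**Figure D3:**
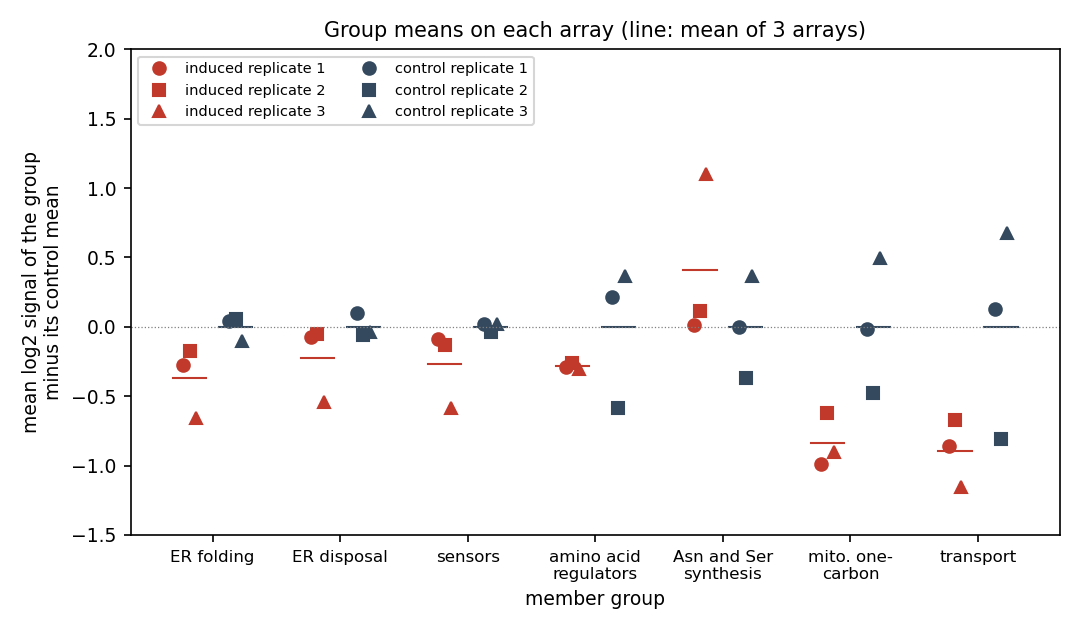
Mean log2 signal of each role group on each array, as the difference from that group's control mean (circle, square and triangle: replicates 1, 2 and 3; line: mean of 3 arrays; induced left of control within each group). The ER folding means lie below all control means on all 3 induced arrays, asparagine and serine synthesis stands high on induced replicate 3 alone, and the control arrays lie far apart in the 4 amino acid groups on the right (folate enzymes are shown as one-carbon).

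Among the regulators, Atf4 itself read 11.13, 11.30 and 10.88 in induced cells and 11.62, 11.26 and 11.49 in control cells (change -0.35, SE 0.16, adjusted p = 0.307), overlapping at control replicate 2. ATF4 is controlled mainly through translation of its mRNA, which an array does not measure. Atf5, a related factor, stood at 0.17 (SE 0.41, adjusted p = 0.879).

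Ddit3, which encodes the pro-apoptotic factor CHOP, read 7.07, 6.87 and 7.16 in induced cells and 6.90, 6.29 and 6.92 in control cells (change 0.33, SE 0.20, adjusted p = 0.444). Only Ddit3 and Atf5 had a positive estimate among the 7 regulators. Trib3, a pseudokinase that ATF4 and CHOP induce, read 5.91, 6.43 and 6.81 in induced cells and 6.90, 5.93 and 8.43 in control cells. Its change of -0.71 (SE 0.61, adjusted p = 0.603) was smaller than its control SD of 1.26.

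Chac1, a glutathione-degrading enzyme, read 7.06, 7.10 and 7.26 in induced cells and 8.63, 6.91 and 7.40 in control cells (change -0.51, SE 0.41, adjusted p = 0.581), a difference carried by control replicate 1. Ppp1r15a, the phosphatase subunit that ends the response, stood at -0.46 (SE 0.28, adjusted p = 0.458). Nupr1, a stress-induced chromatin protein, read 9.50, 9.43 and 8.97 in induced cells and 9.53, 9.53 and 10.24 in control cells (change -0.47, SE 0.24, adjusted p = 0.379), without overlap but with a gap of a few hundredths at its narrowest.

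The metabolic members divided by role. Asparagine and serine synthesis genes all had positive estimates, 4 of 4 with a median of 0.42, while the mitochondrial folate enzymes, the transporters and the tRNA synthetase all had negative ones, 6 of 6. This grouping by role was described after the values were seen, and none of these genes passed over all genes.

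Asns, asparagine synthetase, read 9.74, 9.64 and 10.99 in induced cells and 9.58, 8.69 and 10.34 in control cells (change 0.59, SE 0.51, adjusted p = 0.607). Phgdh, which commits glycolytic carbon to serine, read 6.12, 6.34 and 6.90 in induced cells and 6.04, 5.79 and 6.38 in control cells (change 0.38, SE 0.24, adjusted p = 0.469). Psat1, the next enzyme, read 10.08, 10.13 and 11.43 in induced cells and 10.27, 10.35 and 10.42 in control cells. All 4 genes were highest on induced replicate 3.

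Psat1 shows how far 1 array set these estimates. Its change was 0.20 (SE 0.36, adjusted p = 0.828) with all arrays and -0.24 without induced replicate 3, where both remaining induced arrays lay below all control arrays. Psph, the last enzyme of the pathway, read 8.06, 8.30 and 9.03 in induced cells and 8.07, 7.64 and 8.29 in control cells (change 0.46, SE 0.29, adjusted p = 0.461). The median change of the 4 genes was 0.16 from induced replicates 1 and 2 and 1.06 from induced replicate 3, the array on which the adipocyte markers were highest and the folding members lowest.

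The mitochondrial folate enzymes use serine to make formate and glycine. Mthfd2 read 7.53, 8.04 and 7.76 in induced cells and 8.90, 8.30 and 9.58 in control cells, with no overlap. Its change was -1.15 (SE 0.32, adjusted p = 0.155), or 0.451-fold, and the second Mthfd2 feature gave -0.82. Shmt2, which feeds the same pathway, read 9.49, 9.71 and 9.44 in induced cells and 10.06, 9.75 and 10.41 in control cells (change -0.52, SE 0.19, adjusted p = 0.228), with control replicate 2 just above the induced arrays. Unlike serine synthesis, these genes gave like changes with and without induced replicate 3, -0.90 in the median of both genes from that array and -0.81 from the other induced arrays.

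The lowest estimate of all 42 members was that of a transporter. Slc7a11, the cystine importer, read 5.73, 6.31 and 5.78 in induced cells and 7.73, 5.73 and 8.33 in control cells. Its change of -1.32 (SE 0.63, adjusted p = 0.343) was 0.4-fold on the linear scale, yet control replicate 2 read as low as the induced arrays. Slc7a5, the importer of large neutral amino acids, read 9.73, 9.68 and 9.08 in induced cells and 10.48, 10.11 and 11.18 in control cells (change -1.09, SE 0.31, adjusted p = 0.156), without overlap. Slc3a2, the heavy chain that both of them need at the cell surface, stood at -0.27 (SE 0.21, adjusted p = 0.574). Aars1, alanyl-tRNA synthetase, stood at -0.22 (SE 0.26, adjusted p = 0.734).

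**Figure D4:**
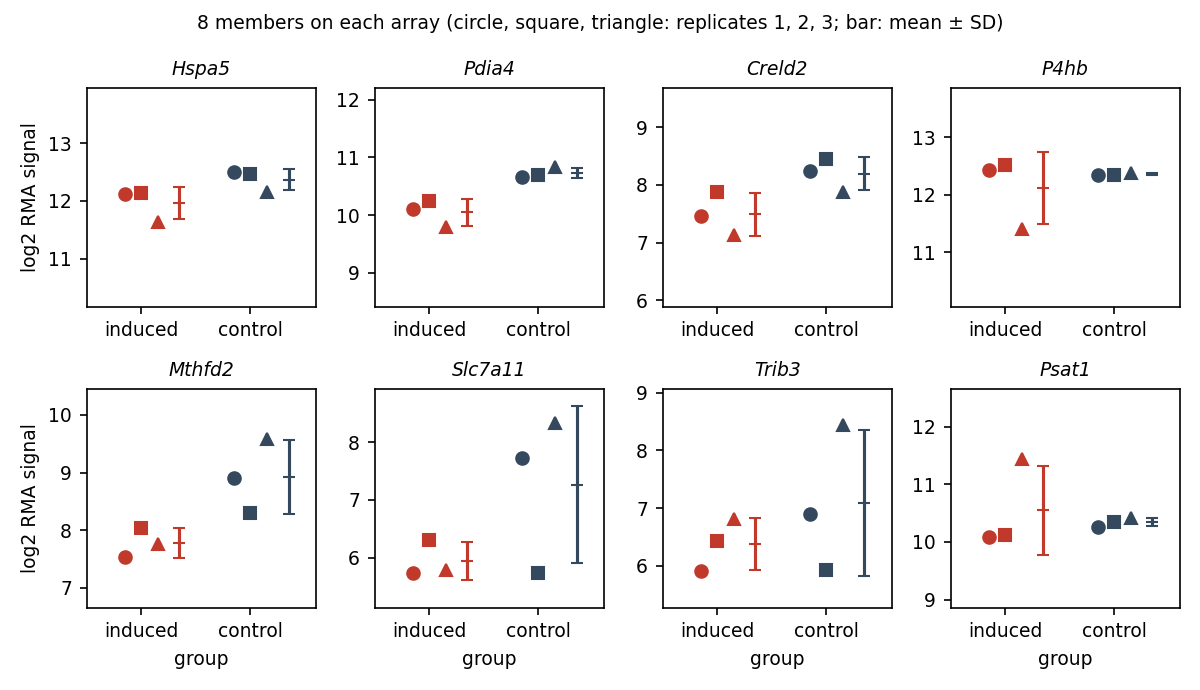
Log2 RMA signal of 8 members on each array, picked after their values were seen to show the patterns described (circle, square and triangle: replicates 1, 2 and 3; bar: mean ± SD; each panel spans the same log2 range and none starts at 0). Pdia4 and Mthfd2 do not overlap between the groups, P4hb and Psat1 turn on induced replicate 3, and Slc7a11 and Trib3 spread widely among control arrays.

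Other genes of the same pathways were taken from lists drawn up by name, with earlier results of these data known. Of 31 further ER folding genes, 30 had an estimate below 0 (median -0.51) and 1 passed, lower in induced cells, where 0.27% of all genes passed as lower. It was Pdia5, a disulfide isomerase, which read 6.95, 7.32 and 6.76 in induced cells and 8.43, 8.40 and 9.12 in control cells and was lower by a log2 change of -1.64 (SE 0.24, adjusted p = 0.0465). Its call was lost without any 1 of the control arrays (adjusted p = 0.0832, 0.115 and 0.0938), without induced replicate 1 (0.19) or without induced replicate 2 (0.116). In this list 22 of 31 genes lay wholly lower on the induced arrays, where 13.4% of all genes did.

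Of 36 genes for ER entry, glycosylation and disposal, 28 had an estimate below 0 (median -0.23) and 17 lay wholly lower, where 13.4% of all genes did. In this list 0 passed by limma, with 17 at an unadjusted p under 0.05, where 17.6% of all genes were. The largest changes were those of Ostc, a subunit of the glycosylation complex, at -0.84 (SE 0.25, adjusted p = 0.166), and Ube2g2, a ubiquitin-conjugating enzyme of ER disposal, at 0.69 (SE 0.15, adjusted p = 0.0963). Ube2g2 read 8.87, 9.15 and 8.77 in induced cells and 8.13, 8.42 and 8.18 in control cells, against the direction of most of its list.

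Among 50 further genes of the integrated stress response, amino acid synthesis and tRNA charging, 30 had an estimate below 0 (median -0.21) and 2 passed, in opposite directions. Over all genes 0.27% passed as lower and 0.479% as higher. Pycr1, the mitochondrial enzyme of proline synthesis, read 6.95, 6.81 and 6.66 in induced cells and 8.02, 8.61 and 8.995 in control cells and was lower by a log2 change of -1.74 (SE 0.25, adjusted p = 0.0426). Ddit4, an mTORC1 inhibitor that both ATF4 and glucocorticoids induce, read 8.10, 8.12 and 7.94 in induced cells and 6.44, 6.96 and 6.98 in control cells and was higher by a log2 change of 1.25 (SE 0.17, adjusted p = 0.0371). Both calls were lost without control replicate 2 (adjusted p = 0.158 for Pycr1 and 0.107 for Ddit4), control replicate 3 (0.0969 for each), induced replicate 1 (0.16 and 0.173) or induced replicate 2 (0.135 and 0.13). The control arrays split in this list too, with control replicate 2 lowest among them for 31 of 50 genes.

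Chaperones of other compartments gave other values. Of 18 cytosolic chaperone and heat shock genes, 11 had an estimate below 0 (median -0.02) and 3 lay wholly lower, where 13.4% of all genes did. By limma 0 passed, with 3 at an unadjusted p under 0.05, where 17.6% of all genes were. Both counts were near these shares. The largest changes in this list were Dnajb1 at -0.43 (SE 0.17, adjusted p = 0.269) and Cryab at 0.42 (SE 0.28, adjusted p = 0.494). Of 13 mitochondrial chaperones and proteases, 11 had a positive estimate (median 0.52) and 7 lay wholly higher, where 12% of all genes did. By limma 0 passed, with 5 at an unadjusted p under 0.05, all higher, where 8.13% of all genes were. Dnaja3, a mitochondrial J protein, stood at 0.92 (SE 0.30, adjusted p = 0.201) and the protease Clpp at 0.85 (SE 0.24, adjusted p = 0.16). The mean of these 13 genes was 9.03, 9.11 and 9.79 on induced arrays and 8.88, 8.77 and 8.78 on control arrays, so it was highest on the induced array where the ER folding mean was lowest. Whether the lists differ from each other was not tested.

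As for the series as a whole, array medians ran from 5.64 to 5.73, and induced replicates 1 and 2 correlated at r = 0.9944 over genes and with induced replicate 3 at 0.9614 and 0.9612. The stromal markers Thy1, Nt5e and Cd44 read 7.65 to 11.21 on induced arrays and 8.74 to 12.33 on control arrays. The adipocyte markers Adipoq, Fabp4 and Plin1 read 11.29 to 12.87 on induced arrays and 6.70 to 10.04 on control arrays, control replicate 1 being the highest control for all 3. The mean of 6 endothelial markers was 4.95 to 5.01 on induced arrays and 5.02 to 5.17 on control arrays. Of these 6, 3 had an estimate below 0 and 3 above, with a median change of 0.002. RMA gives no value of 0 and no detection call, so absence of a marker could not be read.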

How the data were processed

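Expression was measured on one-colour Affymetrix arrays, 1 for each of 3 induced and 3 control cultures, with 6 µg of RNA an array according to the labels. Per the submitters' processing notes RMA made the deposited values, which are log2 signals. Neither its version nor a genome build is named there, and the log2 scale was inferred from the deposited maximum of 13.55. RMA compresses differences at low signal and gives the arrays a common distribution, so a change is relative to the rest of the array. Precision is limited by the 3 arrays a group, which carry no depth.

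Of 36685 features, 18511 had 1 gene symbol, 575 several and 17599 none. The feature with the highest mean over 6 arrays stood for each gene, leaving 18166 genes. The fit used limma 3.58.1 (R 4.3.3; lmFit, then eBayes; no block, 4 residual and 2.65 prior degrees of freedom), with p-values adjusted over all genes, and was tested on simulated data. No permutation test was run, since 3 arrays against 3 allow no exact p under 0.1. The members, lists and tests were chosen with earlier results of these data known. Any member could be named, and of each other pathway list up to 4 called genes or else the 2 largest changes. Promoter windows of the highest and lowest members of each arm were also to be shown, but those of Dnajb9, Asns and Slc7a11 held no match. Of 14 members with a match, the windows of 9 are shown and those of 5 are not reported here. A symbol not found was also sought with a trailing 1 (Aars1), except where it ended in a digit, since Dnajc1 had matched another gene, Dnajc11. The labels do not say whether equal replicate numbers mark a shared animal or preparation. Deviations of equal-numbered replicates from their group means correlated at 0.02, 0.12 and 0.15, and those of unequal-numbered replicates at -0.14 to 0.12. The equal-numbered values did not pass 0.1 in every pair, so these replicates were not treated as pairs. Both replicate 3 arrays were the lowest of their group for 8 of 10 macrophage and leukocyte markers, and whether they share a preparation was not tested. Alternatives (feature choice, low-signal filter, prior, array weights, normalization, replicate block, arrays left out) are given in the closing section.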

Additional observations from a re-analysis of the deposited data

How the results depend on the processing

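Over 15 alternatives, 33 of 42 members kept the sign of their estimate wherever they were fitted. The 9 that did not were P4hb, Dnajc3, Ero1b, Sel1l, Eif2ak3, Atf5, Psat1, Slc3a2 and Aars1, none of which passed under any alternative. The count of members that passed was 0 except with array weights, where Pdia4 alone passed, making 1. With 1 array left out it stayed at 0. Genes passing in all numbered 136, against 69 over all features, 929 with array weights, 740 without both replicate 3 arrays and 2 to 557 with 1 array left out. In the list of further ER folding genes 1 passed, against 0 over all features, 4 with array weights, 2 without both replicate 3 arrays and 0 to 3 with 1 array left out. In the further stress response and amino acid list 2 passed, against 0 over all features, 4 with array weights, 1 after a second quantile normalization, 5 without both replicate 3 arrays and 0 to 2 with 1 array left out. In the ER entry and disposal list 0 passed, and 4 with array weights. The causes were not tested. The replicate block, given although the numbers were not treated as pairing the samples, gave 12 genes in all and 0 in both the further ER folding and the stress response lists.

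With 1 array left out, the folding and disposal median ran from -0.49 to -0.20, the amino acid response median from -0.47 to -0.08, and the difference between the arms from -0.32 to 0.24. As alternatives chosen after seeing the data, the folding members without overlap numbered 13 to 14 and those with a negative estimate 14 to 16, while the amino acid response members without overlap numbered 4 to 10 and those with a negative estimate 10 to 12.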

Other observations

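The ER stress element was also looked for among genes outside the set. Of the measured genes with a promoter, 18 that are no member held ERSE or ERSE-II. Among them were Derl3, which encodes a channel of ER disposal, and the calcium-binding protein gene Nucb1. In a search of 14564 promoters such letters can also match by chance, and whether these matches act as the element was not tested. The median change of these 18 genes was 0.07 and 7 had an estimate below 0. Of them 1 (Cdc45, a replication factor) lay wholly lower on the induced arrays, where 13.5% of all measured genes with a promoter did. By limma 0 passed, with 3 at an unadjusted p under 0.05, where 17.6% of all genes were. Several of the 18 read low, such as Calr4 (4.01 to 4.84) and Defb52 (3.88 to 4.32), where RMA compresses differences. Others, such as Nucb1 (10.18 to 11.21), read high, and the part of signal level was not tested. The 9 folding and disposal members with a match had a median of -0.40, with 8 estimates below 0 and 6 wholly lower. The 8 folding and disposal members with a promoter and no match had a median of -0.23, with 7 below 0 and 3 wholly lower. Derl3 read 6.18, 5.78 and 5.48 in induced cells and 5.66, 5.80 and 5.27 in control cells (change 0.24, adjusted p = 0.64). These genes were named after their values were seen, and whether the sets differ was not tested.

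For the amino acid element, the 4 members with a match had a median change of -0.49 and the 13 members with a promoter and no match -0.27. For 399 other measured genes with a match the median was -0.01. Wholly lower were 1 of the 4, 3 of the 13 and 40 of the 399, where 13.5% of all measured genes with a promoter were. At an unadjusted p under 0.05 by limma there were 0, 3 and 44, where 17.6% of all genes were. Whether these sets differ was not tested.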
